A study of Mus musculus with 2 samples.

Results

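The clustered replication-dependent histone genes encode the H1 linker histone and the H2A, H2B, H3 and H4 core histones that package new DNA in S phase. Members were all rows of the deposited gene table whose GENCODE M21 symbol begins with Hist1h, Hist2h, Hist3h or Hist4h, and they numbered 68 of 51638 genes with a symbol, namely 6 H1, 20 H2A, 17 H2B, 12 H3 and 13 H4 genes. The annotation holds 70 such genes, and Hist1h2bh and Hist1h2bm had no row in the table. RNA came from 2 cultures, Lig4-/- CH12F3 and CH12F3. CH12F3 is a B cell lymphoma line of the mouse, used to study class switching, and Lig4 encodes the ligase that seals DNA ends in nonhomologous end joining. Both cultures were grown in RPMI medium with 10% serum and the labels name no treatment, and whether the Lig4-/- line is 1 clone is not stated there. Each line had 1 library, so no difference below has a replicate check, a spread or a p-value, and each is a description of these libraries.

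Replication-dependent histone mRNAs differ from other mRNAs in that most end at a short stem-loop rather than in a poly(A) tail. The stem-loop binding protein SLBP holds that hairpin, and a complex that contains the U7 small nuclear ribonucleoprotein, FLASH and CPSF73 cuts the transcript just after it. The genes lie in clusters of near-identical copies, H2A and H2B genes often start back to back, and their mRNAs accumulate in S phase and are degraded when DNA synthesis stops. How much of such RNA a library captures depends on whether poly(A) tails were selected, which the labels leave unstated.

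The hairpin was read from the annotated transcripts, since it is the feature that sets these mRNAs apart. It was sought after the stop codon as GGNNNTNTNNANNNCC, 16 bases of which the first 6 pair with the last 6, and it was found in 42 of the 68 members, starting 22 to 59 bases after the stop codon. The forms below are shown with 5 bases on either side, in 5′ to 3′ order, from GENCODE M21 transcripts (GRCm38, transcript strand), and the capitals mark the arms of the stem.
Hist1h1c (H1): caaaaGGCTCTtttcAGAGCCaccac
Hist1h2bj (H2B): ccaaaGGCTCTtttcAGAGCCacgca
Hist1h3c (H3): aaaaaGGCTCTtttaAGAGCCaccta
Hist1h4c (H4): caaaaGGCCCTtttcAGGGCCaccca
Hist1h4b (H4): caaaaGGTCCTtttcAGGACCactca
Hist1h4i (H4): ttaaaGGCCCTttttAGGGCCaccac
The stem and loop of Hist1h1c and Hist1h2bj were shared by 24 members of H1, H2A, H2B and H3. The form of Hist1h3c, which ends the loop in a, was found in 6 members. The form of Hist1h4c was found in 7 members, all H4 genes. Of the 16 expressed members with no match, 9 have fewer than 16 annotated bases after the stop codon, so a missing match says only that these letters are not in the annotated transcript.

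The deposited values are FPKM, a measure scaled by transcript length and library size. Their totals were 962435 for the library labelled Lig4-/- and 1020856 for CH12F3, and read depth is unknown, so no counting interval can be given. The targeted gene Lig4 stood at 0.64 FPKM in the library labelled Lig4-/- and at 0.13 FPKM in the other, both under the expression limit used below, so each direction that follows rests on the label and not on a check by Lig4. All 11 B cell markers were expressed, with a sum of 19184 FPKM in the library labelled Lig4-/- and 12420 FPKM in the CH12F3 library. The 5 fibroblast markers summed to 0.14 and 0.31 FPKM in the same order of libraries. The erythroid marker Hbb-bs was at 0 in both libraries, whereas Hba-a1 stood at 23.6 and 30.5 FPKM. The 6 T cell markers summed to 7.49 FPKM in the library labelled Lig4-/- and 10.5 FPKM in the CH12F3 library. The 5 myeloid markers summed to 9.79 and 5.25 FPKM in that order.

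Histone genes were lower in the library labelled Lig4-/- as a group, with exceptions that included the abundant Hist1h2bc. A member was called expressed where its mean FPKM over both libraries was at least 1, which 46 of 68 members passed. The log2 ratio is that of FPKM + 1 in the library labelled Lig4-/- over FPKM + 1 in the CH12F3 library, a scale that understates differences of low genes. Of the 46 expressed members 36 lay below 0 and 10 above it, and their median log2 ratio was -0.64. Of them 11 were at least 2-fold lower and 1 was at least 2-fold higher. Among all 11422 expressed genes, 41.6% lay below 0, 4.09% were at least 2-fold lower, 21.0% were at least 2-fold higher, and the median was 0.17. With that median set to 0, 17 members were at least 2-fold lower and 6.82% of all expressed genes were so, while 16.3% of all genes were at least 2-fold higher. In bulk RNA, fewer cells in S phase and less histone mRNA per cell cannot be told apart.

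Taken over all 68 members, 46 lay below 0, 13 lay above 0 and 9 were listed at 0 in both libraries. The median over all 68 was -0.42. Of the 46 expressed members, 41 had at least 1 FPKM in both libraries, 3 were under 1 FPKM in the library labelled Lig4-/- (Hist1h1b, Hist1h1e and Hist1h2ad) and 2 were under it in the CH12F3 library (Hist2h2be and Hist1h2bl). These 5 passed through the other library alone, so the limit fixed their direction. Just inside the limit stood Hist1h2bl, with a mean of 1.09 FPKM, and Hist1h2ad, with 1.13 FPKM. Just outside it stood Hist2h2ac, at 0.32 FPKM in the library labelled Lig4-/- and 1.49 FPKM in the CH12F3 library, and Hist1h1d, at 0.52 and 1.23 FPKM in the same order. No member under the limit exceeded 0.69 FPKM in the library labelled Lig4-/- or 1.49 FPKM in the CH12F3 library. Among these 22 members are the testis histone genes Hist1h1t, Hist1h2aa and Hist1h2ba, all listed at 0 in both libraries, and 3 pseudogenes.

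Summed over all members, histone FPKM came to 415 in the library labelled Lig4-/- and 563 in the CH12F3 library, a ratio of 0.737. That was 0.0431% of all FPKM in the library labelled Lig4-/- and 0.0551% in the CH12F3 library. Without Hist1h2bc the sums were 309 and 530.4 FPKM, a ratio of 0.583. The sum is less open than single genes to how reads of near-identical copies were divided. Reads that were dropped or counted for several copies would alter the sum too. Levels kept much of their order among the 46 expressed members, with a Spearman's rho of 0.81 between the libraries, which is a correlation across genes and not across samples.

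**Figure D1:**
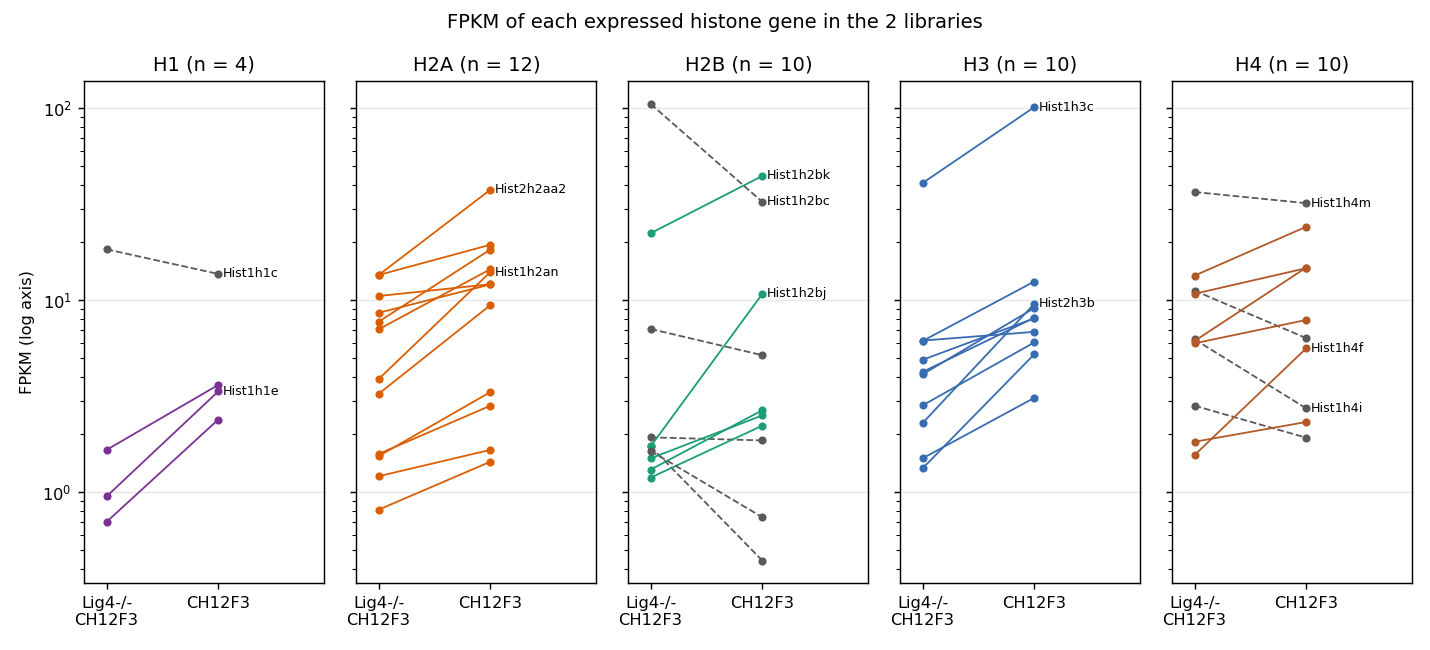
FPKM on a log axis of the 46 expressed histone genes in the library labelled Lig4-/- (left of each panel) and in the CH12F3 library (right), joined gene by gene, with 1 panel per histone class. Coloured solid lines mark genes lower in the library labelled Lig4-/- and grey dashed lines genes higher there: all H2A and H3 genes are lower, while Hist1h2bc stands at 105 FPKM against 32.5 FPKM.

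H1 genes encode the linker histone, which binds DNA where it enters and leaves the nucleosome. The summed H1 level was 22.2 FPKM in the library labelled Lig4-/- and 24.3 FPKM in the CH12F3 library. Hist1h1c was at 18.4 FPKM in the library labelled Lig4-/- and 13.7 FPKM in the CH12F3 library, with a log2 ratio of 0.40. It held 82.8% of the H1 sum in the library labelled Lig4-/- and 56.4% in the CH12F3 library. The other expressed H1 genes were lower, a direction that the limit fixed for Hist1h1e and Hist1h1b. Hist1h1e was at 0.95 FPKM in the library labelled Lig4-/- and 3.35 FPKM in the CH12F3 library (log2 ratio -1.16), Hist1h1a at 1.66 and 3.62 FPKM (-0.80), and Hist1h1b at 0.7 and 2.39 FPKM (-0.996, just within 2-fold on the FPKM + 1 scale), libraries in the same order. Without Hist1h1c the H1 sums were 3.83 and 10.6 FPKM, so the near-equal class totals rested on that gene. Exons of Hist1h1e overlap those of Hist1h2be, so reads could have gone to either gene.

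H2A genes, whose products pair with H2B in the nucleosome, were lower in all 12 expressed members, of which Hist1h2ad had its direction fixed by the limit, with log2 ratios from -1.62 to -0.19 and a median of -0.67. Their summed level was 73.5 FPKM in the library labelled Lig4-/- and 149.9 FPKM in the CH12F3 library, a ratio of 0.490. Hist2h2aa2 was at 13.5 FPKM in the library labelled Lig4-/- and 37.6 FPKM in the CH12F3 library (log2 ratio -1.41), where it led the class. Its copy Hist2h2aa1 was at 3.25 FPKM in the library labelled Lig4-/- and 9.42 FPKM in the CH12F3 library (-1.29). Hist1h2an, at 3.88 and 14.01 FPKM, and Hist1h2ah, at 7.72 and 18.4 FPKM, also passed 2-fold, with log2 ratios of -1.62 and -1.15. These 4 genes are all of the expressed H2A members past 2-fold on the FPKM + 1 scale before GC adjustment. Of them 1, Hist1h2an, stayed past it after the GC adjustment described below. With that adjustment 10 of the 12 expressed members lay below 0, against 50.8% of all expressed genes. The next, Hist1h2ap, was at 7.05 FPKM in the library labelled Lig4-/- and 14.5 FPKM in the CH12F3 library (-0.95). By plain FPKM, Hist1h2ap and Hist1h2ak were more than 2-fold lower too.

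Hist1h2ak stood at 1.54 FPKM in the library labelled Lig4-/- and 3.32 FPKM in the CH12F3 library, and Hist1h2ab at 1.58 and 2.82 FPKM. Hist1h2ae was at 13.5 and 19.4 FPKM, Hist1h2ai at 8.59 and 12.1 FPKM, and Hist1h2ag at 10.5 and 12.1 FPKM, in that order of libraries. Hist1h2ad, at 0.81 and 1.44 FPKM, and Hist1h2ac, at 1.21 and 1.66 FPKM, were the weakest of the class. All 7 were within 2-fold on the log2 scale used here, and all were lower in the library labelled Lig4-/-. Exons of every expressed H2A gene overlap an annotated gene on the other strand, a microRNA model in each case and for Hist2h2aa1 and Hist2h2aa2 an antisense transcript too, and the labels do not say whether reads were counted by strand.

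H2B genes were mixed, with 5 of 10 expressed members on either side of 0 and a median log2 ratio of -0.23. After GC adjustment 6 of the 10 lay below 0, against 50.8% of all expressed genes. Hist1h2bc was at 105 FPKM in the library labelled Lig4-/- and 32.5 FPKM in the CH12F3 library, a log2 ratio of 1.67. It was the most abundant histone gene of the library labelled Lig4-/- and, on the FPKM + 1 scale before GC adjustment, the 1 member at least 2-fold higher there. By plain FPKM, Hist1h2bl, Hist1h4i and Hist2h2be were also more than 2-fold higher there. Hist1h2bc held 71.7% of all H2B FPKM in the library labelled Lig4-/- and 31.2% in the CH12F3 library. The H2B sum was therefore 146.9 FPKM in the library labelled Lig4-/- and 104 FPKM in the CH12F3 library, whereas without Hist1h2bc it was 41.5 and 71.7 FPKM. Hist1h2bc has 1 annotated transcript, of 1156 bases and 2 exons, which runs 742 bases past the stop codon and in which no hairpin was found.

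The opposite end of the class, and of all members, was Hist1h2bj, at 1.73 FPKM in the library labelled Lig4-/- and 10.8 FPKM in the CH12F3 library (log2 ratio -2.11). Hist1h2bk led H2B in the CH12F3 library, at 22.3 FPKM in the library labelled Lig4-/- and 44.4 FPKM in the CH12F3 library (-0.96), just within 2-fold on the FPKM + 1 scale. Hist1h2bb (1.31 and 2.67 FPKM), Hist1h2bf (1.19 and 2.22 FPKM) and Hist1h2br (1.5 and 2.51 FPKM) were lower in the library labelled Lig4-/-, the first value of each. Hist1h2bg, at 7.08 and 5.17 FPKM, and Hist1h2bp, at 1.93 and 1.86 FPKM, were higher there. Hist2h2be, at 1.64 and 0.74 FPKM, and Hist1h2bl, at 1.73 and 0.44 FPKM, passed the expression limit through the library labelled Lig4-/- alone, where they had to be higher.

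H3 genes, whose products carry many of the best known histone tail modifications, were lower in all 10 expressed members, with a median log2 ratio of -0.90. Of all expressed genes 41.6% lay below 0. After GC adjustment 9 of the 10 lay below 0, against 50.8% of all expressed genes. The summed H3 level was 74.8 FPKM in the library labelled Lig4-/- and 170.8 FPKM in the CH12F3 library, a ratio of 0.438, the lowest of the 5 classes. Hist1h3c was at 40.8 FPKM in the library labelled Lig4-/- and 101 FPKM in the CH12F3 library (log2 ratio -1.29), where it was the most abundant of all members. It held 54.5% of H3 FPKM in the library labelled Lig4-/- and 59.4% in the CH12F3 library, and without it the class sums were 33.98 and 69.4 FPKM. Hist2h3b, at 2.29 and 9.58 FPKM, and Hist1h3f, at 1.33 and 5.23 FPKM, passed 2-fold as well (-1.69 and -1.42).

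The remaining H3 genes were within 2-fold on the FPKM + 1 scale, though their FPKM could differ by slightly more. Hist1h3a stood at 6.13 FPKM in the library labelled Lig4-/- and 12.5 FPKM in the CH12F3 library, Hist1h3e at 4.11 and 9.1 FPKM, and Hist1h3i at 2.83 and 6.03 FPKM. Hist1h3d was at 4.23 and 8.1 FPKM, Hist1h3b at 1.5 and 3.1 FPKM, and Hist1h3g at 4.89 and 8.04 FPKM, in the same order. Hist1h3h was nearest to 0, at 6.16 and 6.84 FPKM (-0.13).

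H4 genes, whose product forms a tetramer with H3, lay on both sides of 0, with 6 of 10 expressed members below it and a median log2 ratio of -0.29. After GC adjustment 5 of the 10 lay below 0, against 50.8% of all expressed genes. The class sum was 97.4 FPKM in the library labelled Lig4-/- and 113.8 FPKM in the CH12F3 library, a ratio of 0.855. Hist1h4m led the class, at 36.6 FPKM in the library labelled Lig4-/- and 32.02 FPKM in the CH12F3 library (0.19). Past 2-fold on the lower side stood Hist1h4f, at 1.56 and 5.62 FPKM, and Hist1h4c, at 6.13 and 14.8 FPKM (-1.37 and -1.15), libraries in the same order. Hist1h4b was at 13.4 FPKM in the library labelled Lig4-/- and 24.2 FPKM in the CH12F3 library (-0.80).

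On the higher side, Hist1h4i was at 6.25 FPKM in the library labelled Lig4-/- and 2.73 FPKM in the CH12F3 library (log2 ratio 0.96), and Hist1h4k at 11.2 and 6.34 FPKM (0.73). Hist1h4n was at 2.82 and 1.92 FPKM in that order. The other members, Hist1h4d at 10.8 and 14.7 FPKM, Hist1h4h at 5.96 and 7.89 FPKM and Hist1h4a at 1.83 and 2.32 FPKM, were lower in the library labelled Lig4-/- by less than 2-fold on that scale. The H4 genes encode closely similar proteins, and the difference in direction between copies such as Hist1h4c and Hist1h4i has no replicate check.

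**Figure D2:**
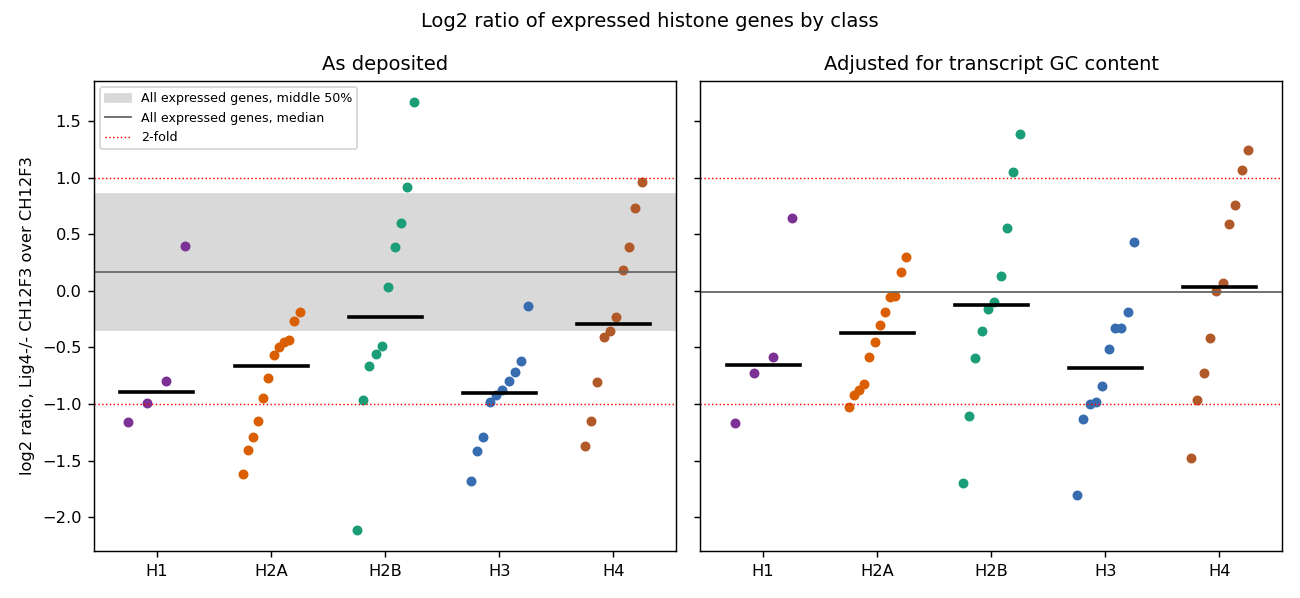
Log2 ratio of FPKM + 1, library labelled Lig4-/- over CH12F3 library, of each expressed histone gene by class, as deposited (left) and adjusted for transcript GC content (right). Black bars are class medians, -0.67 for H2A, -0.90 for H3 and -0.29 for H4 as deposited, and the grey line is the median of all expressed genes.

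Transcript GC content moved with the log2 ratio over all expressed genes, with a Spearman's rho of -0.64 across 11404 genes. The expressed members had a median GC content of 59.3%, against 49.8% for all expressed genes, and 26 of 46 fell in the top decile of GC content, whose median log2 ratio was -0.41. Among the 46 members themselves rho was -0.23. After a smooth curve on GC content was subtracted, the members' median was -0.34, against -0.012 for all expressed genes, and 33 of 46 lay below 0, against 50.8% of all genes. With this adjustment 8 members were at least 2-fold lower, against 5.98% of all genes, and 4 were at least 2-fold higher, against 5.75%. Adjusted medians were -0.68 for H3, -0.65 for H1, -0.38 for H2A and -0.13 for H2B, while that of H4 turned to 0.034. Hist1h2bc, whose transcript has a GC content of 45.9%, went to 1.06 and Hist1h2bj to -1.70. Higher than Hist1h2bc after adjustment stood Hist1h4i at 1.07, Hist1h4k at 1.25 and Hist1h2bl at 1.39. The last of these passed the expression limit through the library labelled Lig4-/- alone. Adjusted for length as well, 31 members lay below 0, 7 were at least 2-fold lower and 4 higher, against 50.7%, 5.95% and 5.36% of all genes. The part of GC content in the histone difference was not tested beyond these values.

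**Figure D3:**
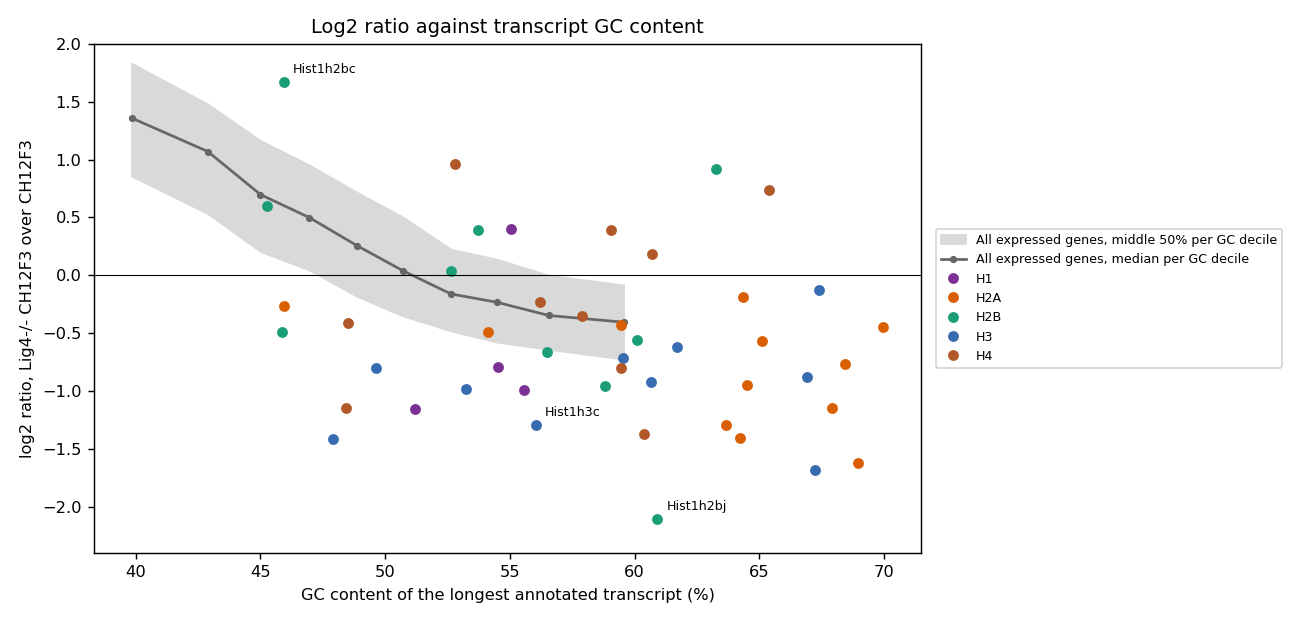
Log2 ratio of FPKM + 1, library labelled Lig4-/- over CH12F3 library, against the GC content of the longest annotated transcript, for the 46 expressed histone genes coloured by class. The grey line and band give the median and middle 50% of all expressed genes by GC decile. The line ends at 59.6%, the median of the top decile, and many histone genes lie beyond that GC content; Hist1h2bc, at 1.67, lies above the line.

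Some members have annotated transcripts that are spliced or that run more than 150 bases past the stop codon, beyond the place of the hairpin. The 16 expressed members of this kind had a median log2 ratio of -0.34, against -0.78 for the other 30. The extended members held the highest value, that of Hist1h2bc, but also Hist1h3f at -1.42. GC content differed between these sets, with medians of 50.4% and 61.3%, and after the adjustment for it the order turned round, to -0.51 for the extended members and -0.34 for the others. By form of the hairpin, the 17 expressed members with the form of Hist1h2bj had a median of -0.57, the 6 with the form of Hist1h4c -0.38 and the 5 with that of Hist1h3c -0.98, the last holding 3 H3 and 2 H2B genes. The 30 expressed members in which a hairpin was found had a median of -0.69, and the 16 in which none was found -0.55.

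How far reads can be told apart between copies was measured as the share of 50-base windows of a member's longest transcript that occur in no transcript of another gene. The median share was 45.7% over the expressed members and ranged from 0% for Hist2h2aa2 to 100% for Hist1h1a, Hist1h1b and Hist2h2be. H2A genes had the lowest class median, 17.7%, and H1 genes the highest, 95.7%. Values of H2A genes taken alone are therefore uncertain. Class sums are less open to this only where shared reads were divided among copies, and how they were treated is not given. The 21 expressed members with at least 50% unique windows had a median log2 ratio of -0.49, with 15 below 0, and the 25 others had -0.71, with 21 below 0. Hist1h2bc had 69.9% unique windows, Hist1h3c 53.01% and Hist1h2bj 40.6%.

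The members lie in clusters, described here by GENCODE M21 coordinates on GRCm38, since the deposited table holds none. The first block on chromosome 13, from 21715763 to 22043676, holds 23 members, 18 of them expressed, with a median log2 ratio of -0.47 and 12 below 0, and after GC adjustment a median of -0.024 and 9 below 0. The second block, from 23531050 to 23934851, holds 30 members, 24 of them expressed, with a median of -0.64 and 21 below 0, and after GC adjustment -0.39 and 20 below 0. The cluster on chromosome 3, from 96219865 to 96270132, holds 10 members, 4 of them expressed. Of those 4, Hist2h2aa1, Hist2h2aa2 and Hist2h3b were at least 2-fold lower and Hist2h2be was higher. After GC adjustment all 4 lay below 0 and 1, Hist2h3b, was at least 2-fold lower. Hist2h2aa1 and Hist2h2aa2, with 10.6% and 0% unique windows, are near-identical copies whose values may rest on shared reads. Of all expressed genes, 41.6% lay below 0 and 4.09% were at least 2-fold lower as deposited. After GC adjustment these shares were 50.8% and 5.98%. The 3 members on chromosome 11 and the 1 on chromosome 6 were not expressed by the limit used. High and low members stood next to each other in both blocks, as Hist1h4i, at 0.96, and its neighbour Hist1h2bk, at -0.96, do.

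**Figure D4:**
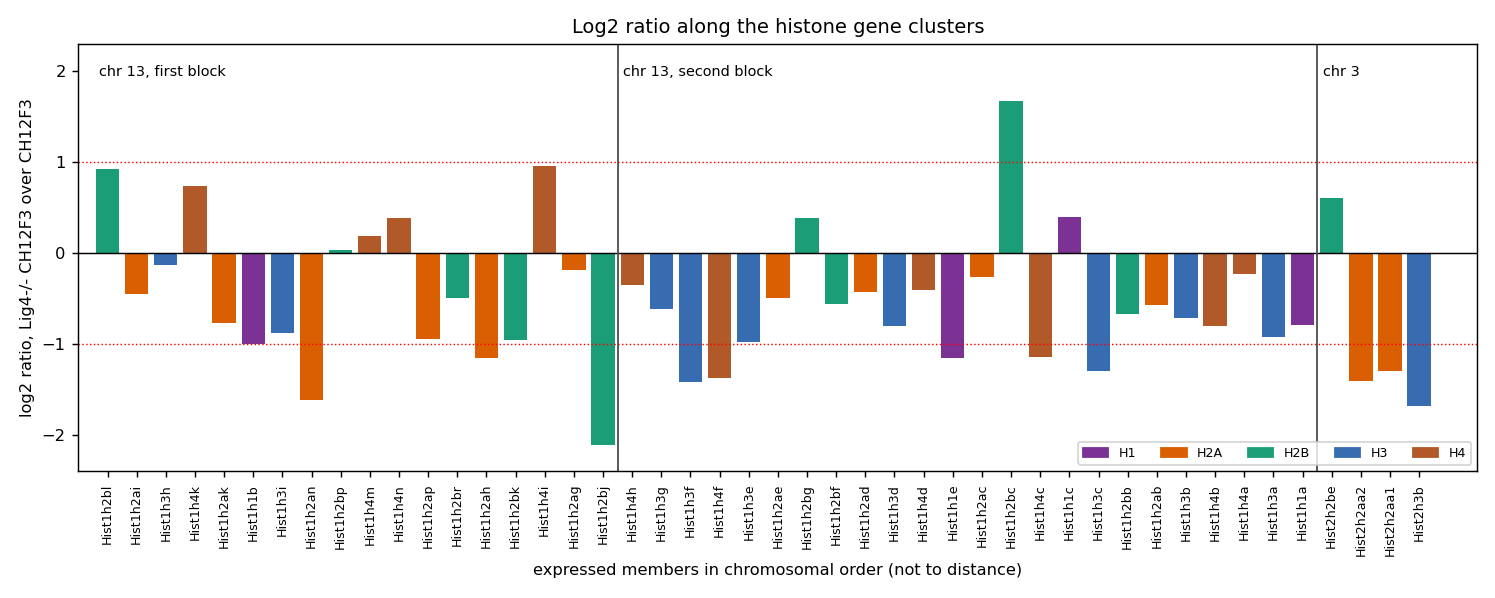
Log2 ratio of FPKM + 1, library labelled Lig4-/- over CH12F3 library, of the 46 expressed histone genes in chromosomal order (distance not to scale), coloured by class, with dotted lines at 2-fold. As deposited, most bars point down in each block (12 of 18 and 21 of 24 on chromosome 13, against 9 and 20 after GC adjustment), and Hist1h2bc, at 1.67, is the 1 bar above the upper dotted line. Of all expressed genes 41.6% lay below 0 as deposited and 50.8% after GC adjustment.

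H2A and H2B genes that start back to back share the stretch between their start sites, so the members of a pair were set side by side. There were 13 such pairs, with starts 173 to 306 bases apart, and in 8 of them both genes were expressed. In 4 of these 8 both genes were lower in the library labelled Lig4-/-, and in the other 4 the H2A gene was lower and the H2B gene higher. In 2 of the 8 pairs the limit fixed the direction of a partner, Hist1h2ad or Hist1h2bl. The H2A gene stood lower than its partner in 6 of 8 pairs as deposited and in 4 of 8 after GC adjustment. The log2 ratios of partners differed by 0.13 to 1.93, with a median difference of 1.13. Hist1h2ah and Hist1h2bk were close, at -1.15 and -0.96. Hist1h2ag and Hist1h2bj were far apart, at -0.19 and -2.11, and so were Hist1h2ac and Hist1h2bc, at -0.27 and 1.67. Their levels also differed: Hist1h2ac stood at 1.21 FPKM beside 105 FPKM for Hist1h2bc in the library labelled Lig4-/-, and at 1.66 beside 32.5 FPKM in the CH12F3 library, both per length of transcript.

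**Figure D5:**
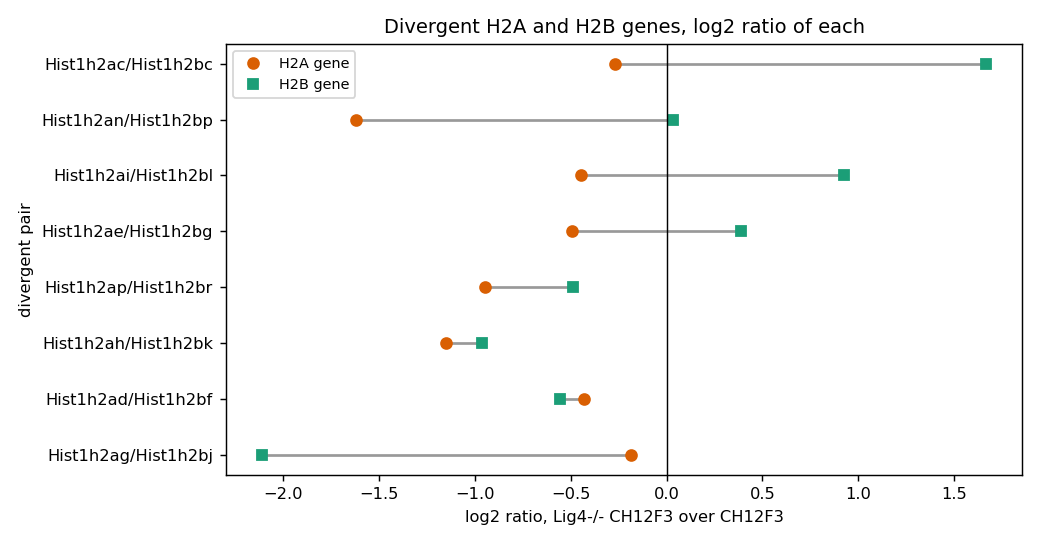
Log2 ratio of FPKM + 1, library labelled Lig4-/- over CH12F3 library, of the H2A gene (circle) and the H2B gene (square) of each divergent pair with both genes expressed. Partners differ by 0.13 to 1.93, and in 6 of 8 pairs the H2A gene lies further down than its partner, against 4 of 8 after GC adjustment, which is not drawn.

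The promoters of a close pair, of a pair far apart and of the most abundant H3 gene are shown for comparison. They are RefSeq windows of 250 bases before to 50 bases after the start (GRCm38.p6), printed in the direction of the named gene, 5′ to 3′, and the capitals mark the TATAAA box, the CCAAT box and the octamer ATTTGCAT on either strand. The annotated starts of Hist1h2bk and its H2A partner lie 302 bases apart and those of Hist1h2bj and its partner 270, so these windows span nearly the whole stretch between partners.
Hist1h2bk, chr13:22035571-22035870, plus strand: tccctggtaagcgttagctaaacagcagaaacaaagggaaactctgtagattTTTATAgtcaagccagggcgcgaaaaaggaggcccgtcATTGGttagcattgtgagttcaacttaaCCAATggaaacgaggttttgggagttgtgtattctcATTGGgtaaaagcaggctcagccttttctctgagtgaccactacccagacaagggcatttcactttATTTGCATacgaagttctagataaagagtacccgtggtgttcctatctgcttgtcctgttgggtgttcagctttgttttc
Hist1h2bj, chr13:22042948-22043247, plus strand: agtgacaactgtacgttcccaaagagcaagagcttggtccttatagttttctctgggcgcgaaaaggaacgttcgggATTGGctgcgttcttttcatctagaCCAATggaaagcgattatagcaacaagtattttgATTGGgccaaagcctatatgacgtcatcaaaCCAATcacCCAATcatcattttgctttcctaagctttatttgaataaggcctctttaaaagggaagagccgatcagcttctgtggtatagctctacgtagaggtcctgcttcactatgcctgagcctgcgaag
Hist1h3c, chr13:23745472-23745771, minus strand: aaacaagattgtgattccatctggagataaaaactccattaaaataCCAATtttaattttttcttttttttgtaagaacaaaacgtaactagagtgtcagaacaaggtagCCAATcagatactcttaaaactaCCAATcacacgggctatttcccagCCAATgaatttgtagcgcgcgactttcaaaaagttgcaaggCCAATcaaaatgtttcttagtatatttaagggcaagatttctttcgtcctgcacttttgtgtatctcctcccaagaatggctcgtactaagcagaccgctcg
A RefSeq window was matched to 58 of the 68 members. CCAAT, searched on both strands like the other motifs, was in 84.5% of these windows and in 37.4% of all 32851 promoter windows of the same length. It was in every window of H1, H2A, H2B and H3 genes, but in 3 of 12 windows of H4 genes. TATAAA was in 58.6% of the members' windows and in 13.6% of all windows. ATTTGCAT, the octamer of H2B promoters, was in 7 of 17 H2A and 5 of 14 H2B windows and in none of the other classes, against 1.74% of all windows. Expressed members with and without the octamer had median log2 ratios of -0.57 (n = 7) and -0.67 (n = 34). With and without TATAAA the medians were -0.57 (n = 27) and -0.71 (n = 14). For CCAAT they were -0.69 (n = 34) and 0.19 (n = 7), the members without it all being H4 genes. Windows of back-to-back H2A and H2B partners overlap, so the same site can be counted for both genes. The octamer of Hist1h2ah and Hist1h2bk is such a site. Counts and medians by motif are thus not of independent windows. These matches are letters in a window and not evidence of binding.

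A list of genes of histone mRNA transcription, processing and decay was mostly higher as deposited but not after GC adjustment. Of its 26 expressed genes, 7 (26.9%) were at least 2-fold higher, near the 21.0% of all expressed genes, and 0 were at least 2-fold lower, against 4.09%. Below 0 lay 8 of the 26, against 41.6% of all expressed genes, and the list's median log2 ratio was 0.67. Slbp, which binds the hairpin, was at 72.7 FPKM in the library labelled Lig4-/- and 23.1 FPKM in the CH12F3 library (1.61), and Npat, the coactivator of histone transcription, at 6.02 and 1.16 FPKM (1.70). Casp8ap2, which encodes FLASH, was at 8.2 and 2.52 FPKM (1.39), and the nuclease gene Eri1, which trims the hairpin end, at 13.3 and 3.53 FPKM (1.66). Ythdc2 (2.79 and 0.4 FPKM, over the limit through the library labelled Lig4-/- alone), Pou2f1, which encodes the octamer factor Oct-1 (4.06 and 1.06 FPKM), and Lsm1, of the decapping pathway (38.6 and 16.5 FPKM), were the others past 2-fold. Lsm11, a protein of the U7 ring, at 9.2 and 15.8 FPKM (-0.72), and Sympk, which encodes the scaffold symplekin, at 91.7 and 135.1 FPKM (-0.55), stood lowest. Cpsf3, which encodes CPSF73 of the cutting complex, was lower too, at 48.96 and 62.48 FPKM (-0.35), libraries in the same order. After GC adjustment the list's median was -0.06, Slbp was at 0.80 and Npat at 0.42, and Upf1, a helicase of RNA decay, was the 1 member past 2-fold, at 1.16.

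S phase genes and histone chaperones, which put histones onto new DNA, had counts past 2-fold not far from those of all genes. Of 26 S phase genes 4 (15.4%) were at least 2-fold higher, against 21.0% of all expressed genes, 0 were at least 2-fold lower, against 4.09%, and 10 lay below 0, with a median of 0.26 and, after GC adjustment, 0.13. Ccne2, a cyclin of S phase entry, was at 24.1 FPKM in the library labelled Lig4-/- and 2.35 FPKM in the CH12F3 library, the sliding clamp Pcna at 292 and 101 FPKM, the polymerase gene Pola1 at 10.5 and 2.28 FPKM, and Cdk2 at 30.8 and 12.7 FPKM. The replicative helicase genes Mcm5, at 150.4 and 271 FPKM, and Mcm7, at 105.6 and 155.9 FPKM, stood lowest. Of 18 chaperone and import genes 5 (27.8%) were at least 2-fold higher and 0 lower, the higher ones being Atrx, Asf1a, Supt16, Nap1l1 and Hat1, with log2 ratios from 1.07 to 2.43. Chaf1b and Chaf1a, subunits of chromatin assembly factor 1, stood lowest, at 54.5 and 100.5 FPKM and at 50.1 and 69.7 FPKM. That list's median was 0.21, or 0.11 after GC adjustment. With that adjustment 1 gene of each list was at least 2-fold lower, the ribonucleotide reductase gene Rrm1 at -1.43 and Chaf1b at -1.09, and 1 at least 2-fold higher, Ccne2 at 1.23 and Atrx at 1.07.

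RNAs chosen as lacking an ordinary poly(A) tail were examined beside the histones, since poly(A) selection could also affect them. Values per gene do not tell apart forms of an RNA with and without such a tail. The RNA component of RNase MRP, Rmrp, was at 5.26 FPKM in the library labelled Lig4-/- and 13.9 FPKM in the CH12F3 library. The 7SK RNA, Rn7sk, was at 9.14 and 20.02 FPKM in that order, and both genes passed 2-fold on the lower side as deposited but not after GC adjustment, at -0.77 and -0.70. They were 2 of the 5 expressed genes of this list, against 4.09% of all expressed genes. Rpph1, the RNA of RNase P, was at 59.6 and 68.6 FPKM, and Neat1 at 16.95 and 16.1 FPKM. Malat1 was higher, with 13.9 FPKM in the library labelled Lig4-/- and 2.23 FPKM in the CH12F3 library, and stayed past 2-fold after GC adjustment, at 1.14. Terc, under the expression limit, was at 1.27 and 0.46 FPKM. All 8 snoRNA and all 5 snRNA genes past 2-fold on the lower side had a value of 0 in the library labelled Lig4-/-, so the limit fixed their direction. The 1 snoRNA and 3 of the 5 snRNA genes past 2-fold on the higher side were listed at 0 in the CH12F3 library. Genes listed at 0 in this way thus give no direction. Of 3 expressed scaRNA genes 2 were at least 2-fold higher, against 21.0% of all expressed genes, 1 of them at 0 in the CH12F3 library. After GC adjustment 1 remained so, against 5.75% of all genes. The most abundant small RNA, the snoRNA Gm22660, was at 443 FPKM in the library labelled Lig4-/- and 599 FPKM in the CH12F3 library, within 2-fold. The part of RNAs that lack an ordinary poly(A) tail in the histone difference was not tested.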

How the data were processed

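Per the labels' protocols, Trizol RNA of 1 culture per line (5 µg) went into TruSeq RNA libraries. The authors deposited FPKM values per gene with 2 decimals. CASAVA and TopHat and the genome build GRCh38, which is human, are named in the submitters' processing notes, whereas identifiers of 51912 of 53873 features are those of mouse Ensembl genes. The build used is thus uncertain. The remaining 1961 features are assembled loci without coordinates and were not used. Not given in the sources used here are the program behind the FPKM values, the strand setting, the treatment of multiply mapped reads and read depth. Reads of near-identical histone genes could have been divided among copies, dropped or counted for several.

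Symbols, coordinates, transcripts, lengths and GC contents came from GENCODE M21 (GRCm38) by identifier, and where identifiers shared a symbol the higher was kept. Values were compared as deposited, with a pseudocount of 1 FPKM and a mean of at least 1 FPKM for expressed genes. The GC adjustment subtracted a lowess curve (fraction 0.3) fitted to the 11404 expressed genes with a GC content, with statsmodels 0.14.6 under Python 3.11.15. It was tested on simulated data. With 1 library per group no test was made. Named are all expressed members, the 2 members under that limit with the highest mean, Lig4, and from each pathway list the 2 highest, the 2 lowest and any other gene past 2-fold, while cell type markers and annotated small RNA classes are given by sums and counts; other genes named from a list, and members listed at 0, are examples chosen after their values were seen. The members and lists were chosen with earlier results of these data known. Other pseudocounts, scalings, filters, adjustments and member sets were tried.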

Additional observations from a re-analysis of the deposited data

How the results depend on the processing

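In all, 150 values of 11 results were recomputed under 15 alternatives, 2 of them (without Hist1h2bc, and members with at least 50% unique windows) chosen after the data were seen. A median counted as unmoved inside the order-statistic 95% binomial interval of its members. For the 4 expressed H1 genes that interval was their full range, which falls short of 95%. A count was unmoved within 1.5 times, and the ratio of sums and the gap (below) within 0.005. By this 106 values stayed. The members are genes of the same libraries and many share sequence, so the interval is a yardstick and not a replicate spread. The median of expressed members was below 0 under every alternative run, from -0.84 to -0.33. With a pseudocount of 0.1 FPKM, 19 members were at least 2-fold lower and 4 higher, the H1 median was -1.36 and the gap between extended and other members 0.56. With 5 FPKM, the median was -0.34, 5 members were lower, H2A and H3 stood at -0.37 and -0.57 and the gap at 0.22. With the overall median set to 0, 17 members were lower and the log2 ratio of sums, -0.44 as reported, was -0.61. With equal totals 2 were higher and that ratio was -0.36; upper quartile scaling gave -0.50 and a gap of 0.44. Without an expression filter H2B turned to 0.015 and the gap was 0.55. At a mean of at least 5 FPKM 21 members lay below 0, fewer being left, H1 turned to 0.40, from Hist1h1c alone, and the gap was 0.48. GC adjustment gave a median of -0.34, 4 higher, H2A -0.38, H4 0.034 and a gap of -0.17. GC and length adjustment gave -0.33, 7 lower, 4 higher, H2A -0.32, H3 -0.60, H4 0.061 and a gap of -0.080. Without Hist1h3c, the member with the highest mean, the ratio of sums was -0.30 and the gap 0.43. At 4-fold 1 member was lower and 0 higher. Without Hist1h2bc 0 were higher, the ratio of sums was -0.78 and the gap 0.37. Among members with mostly unique windows 5 were lower and 15 below 0, fewer being left, H2A was -0.38, H2B turned to 0.39 and the gap was 0.67. Causes of the reversals in H2B and H4 and in the gap were not tested. No paired analysis was possible because each line had 1 library. Depth is unknown, so differences among members near 1 FPKM are the least certain.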

Other observations

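Copies of small RNA genes were listed with equal values or with 0, which bears on how values of near-identical genes are read. The U3 snoRNA copies Rnu3b2, Rnu3b3 and Rnu3b4 were each listed at 0 in the library labelled Lig4-/- and at 51.8 FPKM in the CH12F3 library, whereas Rnu3b1 was at 95.3 and 119 FPKM in the same order. The U1 gene Rnu1a1 was listed at 0 in the library labelled Lig4-/- and at 13.7 FPKM in the CH12F3 library, as were Gm22317 and Gm22634. The copies Gm23804, Gm25679 and Gm26444 were each at 17.5 and 13.7 FPKM. These genes were chosen after their values were seen. Among the histone genes, Hist1h2af was listed at 0 in the library labelled Lig4-/- and at 1.18 FPKM in the CH12F3 library, Hist1h2ao at 0 and 0.43 FPKM, and Hist2h2bb at 0.17 and 0 FPKM.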
